A study of Mus musculus with 15 samples.

Results

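The comparison of DMSO after silica with silica alone rests on 7 of the 15 sequenced libraries of mouse lung, chosen by their labels: the silica_DMSO group (replicates 2, 4, 5 and 6) and the silica group (replicates 1, 2 and 7). All are from C57BL/J mice. The silica group was given silica through the nose in drops, and the silica_DMSO group the same and then DMSO (dimethyl sulfoxide, a solvent that also scavenges hydroxyl radicals) on the second day. Lungs were taken at day 30. The other 8 libraries, the control group on physiological saline (4) and the DMSO group without silica (4), give the level without silica. The labels state no dose, sex or age, and leave unsaid whether libraries come from separate mice, so every p-value below measures the spread between libraries.

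Crystalline silica that reaches the alveoli is taken up by macrophages, damages their lysosomes and activates the NLRP3 inflammasome, which matures interleukin-1. Macrophages that have taken up particles turn on lipid-handling and lysosomal genes, neutrophils and lymphocytes are recruited, and fibroblasts lay down collagen in nodules. The design asks, at the level of RNA in whole lung, which of these genes differ when DMSO follows the particles. In whole tissue, fewer cells of a type and less RNA per cell cannot be told apart.

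The libraries of the silica_DMSO group were not alike. Totals ran from 17434653 to 20829923 counts in the 7 libraries. Rag1, the recombinase of developing lymphocytes, was at 2743 and 2541 CPM (counts scaled to library size) in silica_DMSO 4 and 6 and at most at 0.224 CPM in the other 5. Foxn1, the master regulator of thymic epithelium, was at 27.04 and 16.6 CPM there and had 0 counts in the other 5. The 16 genes of alveolar type 2 cells, the lung's surfactant makers, summed to 1603 and 672 CPM in these libraries, against 29927 to 42122 CPM in the others. The label lung therefore does not match the markers of silica_DMSO 4 and 6, and differences between the groups are given with silica_DMSO 2 and 5 only and with all 4 libraries. Outside the comparison, DMSO 7 also had Rag1 at 3876 CPM, and its type 2 cell genes summed to 9456 CPM. A second difference concerns gene length. Genes over 3000 bases took 42.8%, 34.03% and 22.5% of the counts in silica 1, 2 and 7, 40.04% in silica_DMSO 2 and 11.5% in silica_DMSO 5. Values were therefore also set side by side within the libraries nearest in this share, called like libraries below. These were silica_DMSO 2 against silica 1 and 2, and silica_DMSO 5 against silica 7. The second pair still differs in the share. Across genes, Spearman's rho of gene length with the difference was -0.38 in silica_DMSO 5 and 0.08 in silica_DMSO 2.

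No gene passed an adjusted p under 0.05 (edgeR's quasi-likelihood test, Benjamini-Hochberg) in either comparison. With all 4 libraries, 0 of 17879 genes were called, the smallest adjusted p was 0.708, and 1056 genes (5.91%) were under an unadjusted 0.05. DESeq2 called 69 there, and limma-voom with quality weights, which let each library have its own variance, called 12275. With silica_DMSO 2 and 5, 0 of 17630 genes were called by edgeR and 0 by DESeq2, the smallest adjusted p was 0.997, and 342 genes (1.94%) were under an unadjusted 0.05. Every gene named below therefore has an adjusted p in edgeR of 0.708 or more with all 4 and of 0.997 or more with silica_DMSO 2 and 5. Levels are normalised CPM, scaled by TMM over the 15 libraries, and differences are on the log2 scale with a 95% interval or a standard error (SE).

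Silica_DMSO 2 lay close to the silica libraries. In it, 2.65% of 17630 genes lay more than 1 log2 from the mean of the 3 silica libraries. For silica 1, 2 and 7, each against the mean of the other 2, the shares were 23.8%, 4.37% and 20.8%. Silica_DMSO 5 was at 36.5%, and silica_DMSO 4 and 6 were at 38.02% and 42.3%.

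**Figure D1:**
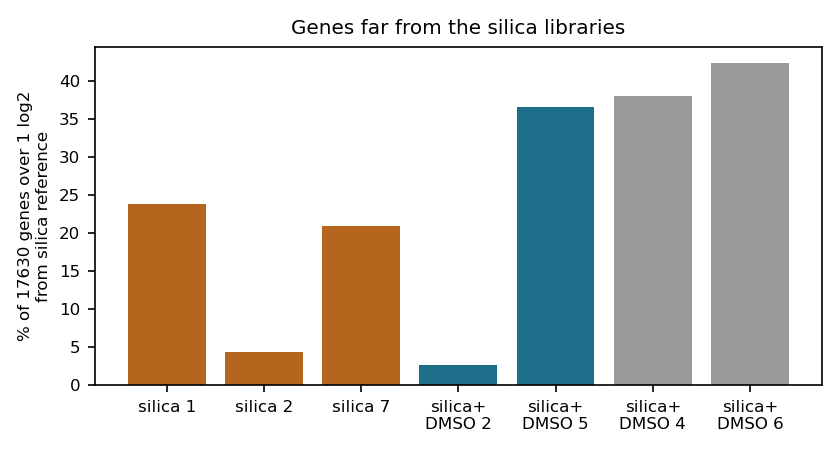
Percent of genes (y axis) whose level lay over 1 log2 from a silica reference, per library (x axis): the mean of the other 2 silica libraries for silica libraries, the mean of all 3 for silica_DMSO libraries. Brown bars are silica, blue silica_DMSO 2 and 5, grey the 2 libraries with Rag1 over 1000 CPM. The bar of silica_DMSO 2 is the lowest of the 7, at 2.65%, and that of silica_DMSO 5 stands at 36.5%.

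Socs3, Csf2ra, Pla2g7 and Mmp19 were lower in all 4 silica_DMSO libraries than in every silica library. Over all genes tested, 1.39% were lower and 0.783% higher in this way with all 4 libraries, and 3.93% and 2.83% with silica_DMSO 2 and 5. Socs3, which shuts off signalling of interleukin-6 through STAT3, was at 44.1, 47.8 and 87.6 normalised CPM in silica 1, 2 and 7, at 29.1 and 26.8 in silica_DMSO 2 and 5, and at 21.6 and 20.7 in silica_DMSO 4 and 6. All 4 sat below the lowest silica library, inside or just under the control range of 21.7 to 47.3. The log2 difference was -1.29 with an SE of 0.33 with all 4 and -1.105 with an interval of -2.01 to -0.196 with silica_DMSO 2 and 5. In TPM, the authors' length-scaled unit, Socs3 was also lower without overlap, at 24.9, 20.4 and 22.97 in silica, 15.3 and 2.45 in silica_DMSO 2 and 5, and 14.3 and 10.6 in silica_DMSO 4 and 6. STAT factors bind the element TTCNNNGAA, which stands once, in either orientation, in the 250 bases before the Socs3 start. It is shown, in capitals, because the groups stayed apart for Socs3 in both units. The stretch lies on the minus strand at chr11:117969487-117969545 (RefSeq, GRCm38.p6):
Socs3: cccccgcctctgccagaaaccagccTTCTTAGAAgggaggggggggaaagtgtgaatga
Of 27025 gene promoters in that table, 8.13% hold this element on either strand, so its presence is only a description. The other listed genes of JAK-STAT feedback overlapped with all 4 libraries. Cish, a feedback inhibitor of STAT5, was at 27.6, 29.2 and 37.2 normalised CPM in silica, 33.3 and 83.7 in silica_DMSO 2 and 5 and 20.3 and 21.6 in silica_DMSO 4 and 6 (log2 difference 0.89, interval 0.05 to 1.73, with all 4 0.34, SE 0.45).

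Csf2ra, the alpha chain of the receptor for GM-CSF that alveolar macrophages need to mature, was at 48.7, 22.4 and 15.3 normalised CPM in silica 1, 2 and 7 and at 14.95 and 4.88 in silica_DMSO 2 and 5. Silica_DMSO 2 was just below silica 7, and silica_DMSO 5 below the control range of 13.3 to 17.2. Its log2 difference was -1.51 with an interval of -2.68 to -0.35 with silica_DMSO 2 and 5 and -1.87 with an SE of 0.46 with all 4, where silica_DMSO 4 and 6 were at 6.91 and 4.74. Pla2g7, a secreted lipase that macrophages make to cut oxidised phospholipids, was at 184, 64.2 and 40.5 in silica and at 33.3 and 17.7 in silica_DMSO 2 and 5. Silica_DMSO 5 was inside the control range of 9.52 to 28.6 and silica_DMSO 2 just above it, with a log2 difference of -1.898 with an interval of -3.39 to -0.41. With all 4 the difference was -2.15 with an SE of 0.56, at 20.1 and 15.7 in silica_DMSO 4 and 6.

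Mmp19, a matrix metalloproteinase of macrophages and vessels, was at 139, 61.99 and 47.7 normalised CPM in silica and at 40.9 and 23.5 in silica_DMSO 2 and 5, above the control range of 10.5 to 19.3 in both. The log2 difference was -1.35 with an interval of -2.42 to -0.28, and -2.26 with an SE of 0.82 with all 4, where silica_DMSO 4 and 6 held 3.68 and 1.49. Within like libraries Mmp19 was -1.17 in silica_DMSO 2 and -1.01 in silica_DMSO 5 on the log2 scale. Rnf149, a membrane ubiquitin ligase (log2 difference -1.298, interval -2.54 to -0.05, with all 4 -1.57, SE 0.45), Nuak2, a kinase of the AMPK family (log2 difference -0.93, interval -1.73 to -0.13, with all 4 -1.21, SE 0.37), and the less abundant Mfsd7a, Apol6, Stac2, M1ap and Lca5l were lower without overlap in both comparisons too. Muc5ac, a gel-forming mucin, was at 14.7, 3.24 and 3.43 in silica and 2.67 and 2.03 in silica_DMSO 2 and 5 (log2 difference -1.57, interval -3.303 to 0.16, with all 4 -2.04, SE 0.76), and Cd68, the lysosomal glycoprotein of macrophages, at 236, 131 and 101 and 65.3 and 97.3 (log2 difference -0.94, interval -2.09 to 0.21, with all 4 -1.22, SE 0.45).

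Fewer of these genes stayed apart in TPM. Over all genes tested, 0.162% were lower and 0.0392% higher without overlap in both units with all 4 libraries, and 0.59% and 0.199% with silica_DMSO 2 and 5. Socs3, Apol6 and Lca5l were lower without overlap in all 4 silica_DMSO libraries in that unit too, and M1ap in silica_DMSO 2 and 5. Csf2ra, Pla2g7, Mmp19, Rnf149, Nuak2, Mfsd7a, Stac2, Cd68 and Muc5ac overlapped in it. For Csf2ra, silica 7 stood at 7.48 TPM and silica_DMSO 2 at 13.8.

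**Figure D2:**
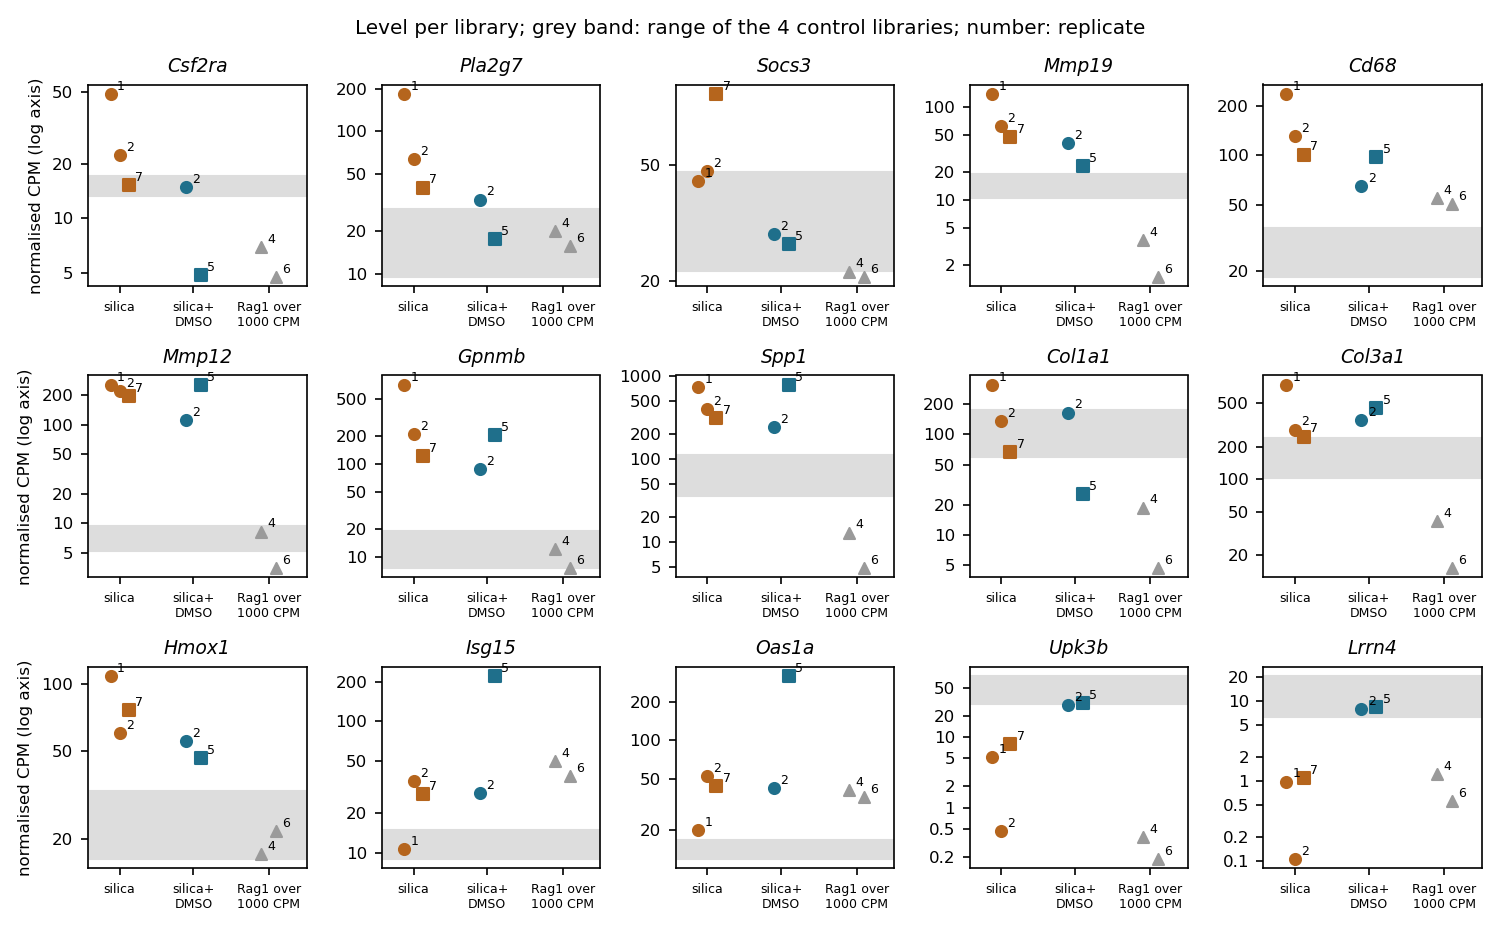
Level of 15 genes in normalised CPM (y axis, log scale) in silica libraries (brown), silica_DMSO 2 and 5 (blue) and the silica_DMSO libraries with Rag1 over 1000 CPM (grey triangles). Numbers are replicates, squares the libraries with under 30% of counts in long genes, and the grey band spans the 4 controls. Socs3, Csf2ra, Pla2g7, Mmp19 and Cd68 sit below every silica library in all 4, Mmp12, Gpnmb and Spp1 are lower in silica_DMSO 2 than in 5, and Upk3b and Lrrn4 are higher in silica_DMSO 2 and 5 than in every other plotted library.

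Genes that silica raises stayed above the controls in silica_DMSO 2 and 5. A list of 18 such genes, chosen on these same libraries and so no independent evidence, had a median of 3.23, 2.91 and 3.12 log2 above the control mean in silica 1, 2 and 7. The median was 2.34 in silica_DMSO 2 and 3.34 in silica_DMSO 5, against 0.53 and 0.09 in silica_DMSO 4 and 6. In the DMSO group, which got no silica, it was 1.13, 2.63 and -0.11 in DMSO 1, 4 and 6, so DMSO 4 stood above silica_DMSO 2. DMSO 7, with Rag1 at 3876 CPM, was at -0.46. Silica_DMSO 2 lay below all 3 silica libraries for 15 of the 18, where 14.8% of all genes did. In TPM it was 8 of 18, against 5.06% of all genes. Silica_DMSO 5 lay above all 3 for 8 of them and below for 5, where 34.8% and 37.1% of all genes did.

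Mmp12, the macrophage elastase, was at 254, 219.7 and 193 normalised CPM in silica, 110.3 in silica_DMSO 2 and 253 in silica_DMSO 5, while controls held 5.23 to 9.36. In this unit silica_DMSO 2 was thus lowest of the 5 lung libraries and still over the controls. The log2 difference was -0.29 with an interval of -1.28 to 0.697, or -1.24 with an SE of 0.98 with all 4. Gpnmb, a glycoprotein of lipid-laden macrophages, was at 722, 210.4 and 123 in silica, 88.9 in silica_DMSO 2 and 205 in silica_DMSO 5, a difference of -1.24 with an interval of -2.94 to 0.45, or -2.17 with an SE of 0.997 with all 4. Trem2, the lipid receptor of the same macrophages, was at 49.8, 24.7 and 29.1, then 10.8 and 128, and 4.94 and 3.300 in silica_DMSO 4 and 6 (log2 difference 1.01, interval -1.03 to 3.05, with all 4 0.09, SE 1.14). In silica_DMSO 4 and 6 these genes were near or under the controls, Gpnmb at 12.1 and 7.53 against 7.52 to 18.8 and Mmp12 at 8.29 and 3.53, where the summed type 2 cell genes were low as well. The part of the thymus RNA in that was not tested. In TPM silica_DMSO 5 was the lowest of the 5 lung libraries for Mmp12, at 29.03, and for Gpnmb, at 12.59. Silica_DMSO 2, at 90.5 and 29.1, lay within the silica ranges of 73.9 to 252 and 21.45 to 277. For Trem2 silica_DMSO 2 stayed lowest, at 19.1 TPM against 22.67 to 104 in silica, and silica_DMSO 5, at 32.8, lay within that range.

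In normalised CPM the wider macrophage lists split the same way between the 2 lung libraries. Of 20 genes of lipid-handling macrophages, silica_DMSO 2 was below all silica libraries in 13 and silica_DMSO 5 above all in 12, where 14.8% and 34.8% of all genes were. Of 23 genes of lysosomes and autophagy the counts were 14 and 15. In TPM silica_DMSO 2 was below in 4 of the first list and 1 of the second, against 5.06% of all genes. Spp1, osteopontin, a matrix protein of profibrotic macrophages, was at 742, 404 and 310.4 in silica, 243 in silica_DMSO 2 and 792 in silica_DMSO 5, with a difference of 0.097 with an interval of -1.16 to 1.35, or -0.88 with an SE of 1.15 with all 4. Ctss, cathepsin S, was at 2029, 576 and 435, then 353 and 494 (log2 difference -1.24, interval -2.71 to 0.23, with all 4 -1.75, SE 0.64). Of the lysosomal genes 4 were lower without overlap with silica_DMSO 2 and 5 and 3 with all 4, where 3.93% and 1.39% of all genes were. Gla, a lysosomal galactosidase, had the smallest p of them, at 35.2, 24.4 and 22.7 in silica, 19.4 and 15.9 in silica_DMSO 2 and 5 and 7.87 and 9.202 in silica_DMSO 4 and 6 (log2 difference -0.64, interval -1.295 to 0.02, with all 4 -1.07, SE 0.35). In TPM Gla overlapped. Spp1 was at 850, 336 and 160.4 TPM in silica, 239 in silica_DMSO 2 and 144 in silica_DMSO 5. The order of silica_DMSO 2 and 5 for Spp1 thus depends on the unit. The median difference of the lipid macrophage list was 0.19 with silica_DMSO 2 and 5, -0.61 with all 4, and -0.801 in log2(TPM + 1), where the median of all genes moved to -0.48.

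**Figure D3:**
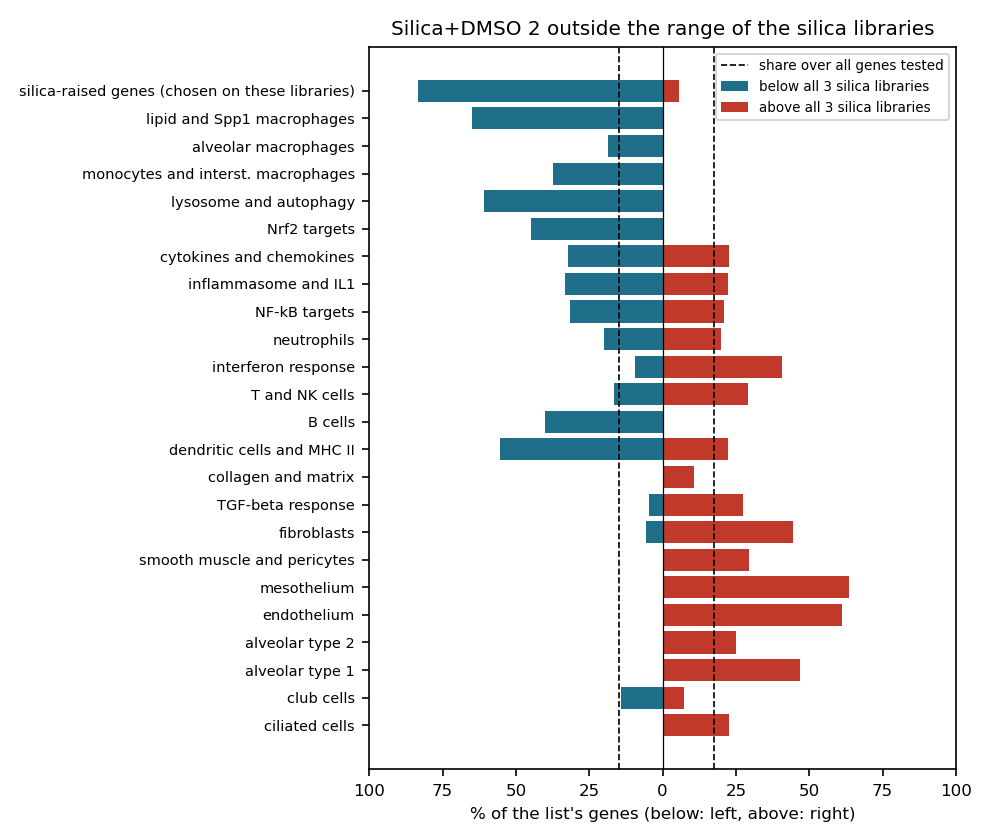
For each gene list (y axis), the percent of its genes (x axis) at which silica_DMSO 2 lay below (blue, left) or above (red, right) all 3 silica libraries in normalised CPM; dashed lines give the same share over all genes tested. Silica-raised, lipid macrophage and lysosomal genes extend to the left, with 15 of 18 in the first list, and mesothelial and endothelial genes to the right.

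Nlrp3, Cxcl2, Il1a and Acod1, early inflammatory genes, were above every silica library in silica_DMSO 2 and low in silica_DMSO 5. Of 31 cytokine and chemokine genes, silica_DMSO 2 was above all silica libraries in 7 and below all in 10. Of 18 genes of the inflammasome and interleukin-1 it was above in 4 and below in 6, where 17.5% and 14.8% of all genes were. Nlrp3 is named by rule, and Cxcl2, Il1a and Acod1 were chosen after their values were seen. Nlrp3, the sensor of the inflammasome, was at 12.1, 9.91 and 24.3 normalised CPM in silica, 38.9 in silica_DMSO 2 and 0.508 in silica_DMSO 5, with controls at 1.23 to 7.62. In silica_DMSO 4 and 6 it was at 1.55 and 1.35. Silica_DMSO 2 was the highest and silica_DMSO 5 the lowest of the 5 lung libraries, and the difference of 0.36 with an interval of -2.04 to 2.76 spans both directions. With all 4 it was -0.54 with an SE of 1.096. Cxcl2, the neutrophil chemokine, was at 10.03, 3.81 and 219 in silica 1, 2 and 7, at 311 in silica_DMSO 2, at 4.98 in silica_DMSO 5 and at 2.85 and 1.16 in silica_DMSO 4 and 6 (log2 difference 1.01, interval -2.602 to 4.62, with all 4 0.04, SE 1.65). Il1a, interleukin-1 alpha, was at 19.3, 9.76 and 35.99, then 39.8 and 3.05, and 2.51 and 1.77 in silica_DMSO 4 and 6 (log2 difference -0.01, interval -1.92 to 1.899, with all 4 -0.88, SE 0.92). Acod1, which makes itaconate, was at 69.4, 10.9 and 76.6, then 91.7 and 5.39, and 0.377 and 0.651 in silica_DMSO 4 and 6 (log2 difference -0.096, interval -2.91 to 2.72, with all 4 -1.09, SE 1.49). Among the silica libraries, silica 7 was the highest for each of these genes, and for Cxcl2, Il1a and Acod1 the step from it to silica_DMSO 2 was smaller than the range within silica. In TPM silica_DMSO 2 was above all silica libraries for Nlrp3, Cxcl2, Il1a and Acod1 too.

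The main cytokines of silica lung, Tnf, Il1b, Il6 and Ccl2, overlapped between the groups in normalised CPM. Tnf was at 9.71, 4.905 and 7.84 normalised CPM in silica and 4.98 and 5.89 in silica_DMSO 2 and 5, a difference of -0.46 with an interval of -2.02 to 1.104, or -0.91 with an SE of 0.62 with all 4. Il1b, interleukin-1 beta, was at 15.6, 72.9 and 61.1 and 70.03 and 44.00 (log2 difference 0.18, interval -1.18 to 1.54, and -0.701 with an SE of 0.904 with all 4). Il6 stayed near 1 normalised CPM in all 5, at 0.797, 0.835 and 1.35 and 0.743 and 1.52 (log2 difference 0.16, interval -2.41 to 2.72, with all 4 -0.62, SE 1.06). In TPM Il6 was at 1.09, 0.87 and 0.99 in silica and lower in all 4 silica_DMSO libraries, at 0.86 and 0.36 in silica_DMSO 2 and 5 and 0.32 and 0.32 in silica_DMSO 4 and 6. Ccl2, the monocyte chemokine, was at 5.77, 11.1 and 13.7 and 7.69 and 30.5 (log2 difference 0.89, interval -0.96 to 2.73, with all 4 0.03, SE 0.96), over the control range of 0.567 to 1.71. Cxcl10, a T cell chemokine induced by interferon gamma, was lower without overlap in silica_DMSO 2 and 5, at 10.5 and 14.1 against 31.3, 26.9 and 27.7 (log2 difference -1.22, interval -2.55 to 0.12, with all 4 -0.27, SE 0.56), and stood at 40.3 and 29.8 in silica_DMSO 4 and 6. Of 31 cytokine and chemokine genes, 2 were lower and 0 higher without overlap with silica_DMSO 2 and 5, where 3.93% and 2.83% of all genes were, and 0 was under an unadjusted p of 0.05 in either direction, where 1.94% of all genes were. Over all 4 libraries 0 was lower without overlap, against 1.39% of all genes, and 1 of 32 was higher at an unadjusted p under 0.05, where 4.6% of all genes were. Of 19 targets of NF-kB, 2 were lower at an unadjusted p under 0.05, where 0.42% of all genes were, and 2 with all 4, where 1.3% were. With silica_DMSO 2 and 5 they were Bcl3, an NF-kB cofactor (18.7, 13.9 and 20.4 and 10.1 and 7.93 normalised CPM, log2 difference -0.97 with an interval of -1.83 to -0.097, or -0.91 with an SE of 0.37 with all 4), and Tnfaip2 (140.0, 68.1 and 59.5 and 40.8 and 46.1, log2 difference -1.03 with an interval of -2.04 to -0.02, or -1.52 with an SE of 0.52 with all 4). In TPM Bcl3 and Cxcl10 stayed lower without overlap in silica_DMSO 2 and 5, and Tnfaip2 overlapped. In the list of neutrophil genes, 5 of 15 differences were above 0 with silica_DMSO 2 and 5, where 48.9% of all genes were, and 1 with all 4, where 52.7% were. Cxcr2, the neutrophils' chemokine receptor, ran from 4.69 to 51.5 within silica alone, against 10.8 and 3.56 in silica_DMSO 2 and 5 and 0.461 and 0.697 in silica_DMSO 4 and 6.

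Collagens and other matrix genes, the readout of fibrosis, mostly overlapped between the groups. Col1a1, the main fibrillar collagen chain, was at 312, 137 and 67.1 normalised CPM in silica 1, 2 and 7, 165 in silica_DMSO 2 and 25.6 in silica_DMSO 5, and controls ran from 59.2 to 174. Silica_DMSO 2 falls among the silica libraries and silica_DMSO 5 below them. The log2 difference was -0.83 with an interval of -2.51 to 0.84, or -1.69 with an SE of 0.903 with all 4, where silica_DMSO 4 and 6 held 18.8 and 4.69. Col3a1 was at 745, 287 and 248 in silica and 350.0 and 456 in silica_DMSO 2 and 5, all 5 above the highest control at 239, with a difference of -0.07 with an interval of -1.297 to 1.16. Fn1, fibronectin, was at 959, 154 and 169.8 and 311 and 278 (log2 difference -0.51, interval -2.22 to 1.19), Acta2, the actin of myofibroblasts and smooth muscle, at 67.1, 158 and 299 and 139 and 90.4 (log2 difference -0.62, interval -2.02 to 0.78), and Timp1, an inhibitor of metalloproteinases, at 7.08, 15.4 and 24.4 and 8.13 and 38.01 (log2 difference 0.54, interval -1.51 to 2.59). Tgfb1, the growth factor that drives fibroblasts, was at 83.6, 75.9 and 59.99 and 64.96 and 35.3 (log2 difference -0.54, interval -1.38 to 0.301). Each of these intervals includes 0. Over all 4 libraries the log2 differences were -0.98 with an SE of 0.904 for Col3a1, -1.397 with an SE of 0.897 for Fn1, -1.297 with an SE of 0.69 for Acta2, -0.27 with an SE of 0.99 for Timp1 and 0.098 with an SE of 0.397 for Tgfb1. In TPM Timp1 was lower in all 4, at 16.4, 25.9 and 24.2 in silica, 15.96 and 13.5 in silica_DMSO 2 and 5 and 7.75 and 4.95 in silica_DMSO 4 and 6.

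Of 28 collagen and matrix genes, 6 differences were above 0 and 22 below with silica_DMSO 2 and 5, where 48.9% and 51.1% of all genes were. Their median was -0.21, against -0.02 over all genes. The number with an unadjusted p under 0.05 was 0 in both comparisons, where 1.94% of all genes were with silica_DMSO 2 and 5 and 5.91% with all 4. Without overlap 2 were higher with silica_DMSO 2 and 5, against 2.83% of all genes. The median ran from -1.02 to 0.32 over the other fits and changed sign in 3 of 15. Within like libraries it was -0.04 in silica_DMSO 2 and 0.19 in silica_DMSO 5. The smallest p with silica_DMSO 2 and 5 belonged to Fbln1, fibulin-1 (26.7, 43.2 and 38.2 and 51.1 and 71.9 normalised CPM, log2 difference 0.76 with an interval of -0.09 to 1.62, or -0.01 with an SE of 0.63 with all 4), and to Tnc, tenascin C (36.5, 9.497 and 8.57 and 10.8 and 8.23, log2 difference -0.91 with an interval of -2.36 to 0.54, or 2.06 with an SE of 1.19 with all 4). Fbln1 overlapped in TPM. Over all 4 libraries 23 of 28 lay below 0, where 47.3% of all genes did, with a median of -0.97. Fibroblast genes stood -4.13 and -4.96 log2 from the control mean in silica_DMSO 4 and 6. Of 22 targets of TGF-beta, 10 lay above 0 with silica_DMSO 2 and 5, where 48.9% of all genes did. At an unadjusted p under 0.05, 0 were lower, against 0.42% of all genes. With all 4 libraries 4 of 22 lay above 0, where 52.7% of all genes did, and 1 was lower at that p, against 1.3%.

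Interferon-induced genes mostly had differences above 0 with silica_DMSO 2 and 5 together, and silica_DMSO 5 had the higher list median. Type I interferons switch on genes that often carry the interferon-stimulated response element near their start, GAAA, any 2 bases and GAAA. The list held 32 tested genes. Of 23 listed genes with a promoter in the RefSeq table, 12 (52.2%) hold it on either strand in the 250 bases before the start, as do 3.46% of all promoters. The stretches of 3 members with an unadjusted p under 0.05 are shown because they carry the element in overlapping copies, marked in capitals, all on the minus strand (GRCm38.p6), at chr4:156200850-156200921, chr5:120907526-120907570 and chr8:71537562-71537627:
Isg15: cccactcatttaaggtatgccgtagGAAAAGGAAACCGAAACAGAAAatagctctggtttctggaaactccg
Oas1a: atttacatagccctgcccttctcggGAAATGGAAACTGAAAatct
Bst2: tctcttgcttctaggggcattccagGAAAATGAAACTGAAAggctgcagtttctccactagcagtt
The element appears 3 times in the window of Isg15 and 2 times each in those of Oas1a and Bst2.

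Of 32 interferon-induced genes tested, 29 differences were above 0 with silica_DMSO 2 and 5, where 48.9% of all genes were. At an unadjusted p under 0.05, 10 were higher, where 1.52% of all genes were. The median difference was 0.66, and 0.53 with all 4, where 28 of 32 were above 0, against 52.7% of all genes. With all 4, 2 were higher and 1 lower at that p, where 4.6% and 1.3% of all genes were. From the control mean, the list median was 0.94 in silica_DMSO 2 and 1.32 in silica_DMSO 5, against 0.24, 0.95 and 0.42 in silica. Silica_DMSO 2 was above all silica libraries in 13, where 17.5% of all genes were, but within their range for Isg15, Oas1a and Bst2. Ifi27l2a was at 16.2, 103 and 142 normalised CPM in silica, 149 in silica_DMSO 2, 2806 in silica_DMSO 5 and 129 and 118 in silica_DMSO 4 and 6. Silica_DMSO 5 stood alone, and silica_DMSO 2 was next to silica 7 (log2 difference 4.06, interval 1.49 to 6.64, with all 4 3.202, SE 1.24). Isg15, a ubiquitin-like modifier, was at 10.6, 35.1 and 27.8 in silica, 28.2 in silica_DMSO 2 and 222 in silica_DMSO 5 (log2 difference 2.33, interval 0.43 to 4.24, with all 4 1.79, SE 0.79). Oas1a, a sensor of double-stranded RNA, was at 20.02, 52.4 and 43.9, 42.6 and 318 (log2 difference 2.2, interval 0.203 to 4.197, with all 4 1.49, SE 0.94), and Bst2 (tetherin) at 55.00, 102 and 109, 102 and 469 (log2 difference 1.67, interval 0.06 to 3.29, with all 4 0.99, SE 0.78).

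Ifi44, Xaf1 and Irf7 were above every silica library in both in normalised CPM, and of them Xaf1 was in TPM too. In TPM silica_DMSO 5 held 3.28 of Ifi44 against 7.12, 10.5 and 1.81 in silica, and 41.6 of Irf7 against 19.6, 42.7 and 13.2. Ifi44 was at 12.6, 25.7 and 7.58 in silica, 36.1 in silica_DMSO 2 and 41.6 in silica_DMSO 5, with controls at 9.58 to 10.9 (log2 difference 1.34, interval 0.36 to 2.32, with all 4 0.88, SE 0.45). Xaf1, a proapoptotic interferon target, was at 18.2, 38.5 and 40.8, 42.5 and 227 (log2 difference 2.03, interval 0.64 to 3.43, with all 4 1.302, SE 0.73). Irf7, the factor that amplifies the response, was at 24.1, 75.03 and 36.4, 81.9 and 338 (log2 difference 2.203, interval 0.18 to 4.22, with all 4 1.69, SE 0.84). Ifit1, in contrast, was at 20.6, 50.6 and 18.6, 46.5 and 29.3 (log2 difference 0.33, interval -0.91 to 1.58, with all 4 0.46, SE 0.45), and Gbp2, a target of interferon gamma, was lower without overlap, at 181, 146 and 136 and 131 and 81.6 (log2 difference -0.53, interval -1.34 to 0.28, with all 4 -0.78, SE 0.35), and overlapped in TPM. DMSO 4, which received no silica and had 12.4% of its counts in long genes, held 56.2 of Isg15, 154 of Oas1a, 225 of Irf7 and 278 of Ifi27l2a, while controls reached 14.8, 16.7, 26.7 and 70.9. The part of the short-gene makeup in single interferon genes was not tested. With the long-gene share as a covariate the median of the list was 0.53, and within like libraries it was 0.41 in silica_DMSO 2 and 1.08 in silica_DMSO 5. In log2(TPM + 1) the median turned to -0.16, which is 0.31 above the median of all genes in that unit. Ifi27l2a was higher in all 4 silica_DMSO libraries than in every silica library in TPM, at 129, 616 and 417 in silica, 997 and 2932 in silica_DMSO 2 and 5 and 881 and 825 in silica_DMSO 4 and 6.

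Mesothelial genes, those of the lining of the pleura, had differences above 0 with silica_DMSO 2 and 5 in all 11 tested, where 48.9% of all genes did, with a median of 1.77. Of them 6 were higher without overlap and 3 higher at an unadjusted p under 0.05, against 2.83% and 1.52% of all genes. The summed level of the list, which its most abundant genes set, overlapped, at 228, 340.0 and 418 CPM in silica and 456 and 393 in silica_DMSO 2 and 5. Upk3b, uroplakin 3B, was at 5.25, 0.4696 and 7.84 normalised CPM in silica and 27.98 and 30.2 in silica_DMSO 2 and 5, about the lowest control at 29.1 (log2 difference 2.68, interval -0.06 to 5.43, with all 4 1.69, SE 1.497). Lrrn4 was at 0.985, 0.104 and 1.09 and 7.96 and 8.43 (log2 difference 3.48, interval 0.52 to 6.44, with all 4 2.62, SE 1.35), with controls at 6.29 to 21.00. Muc16, the surface mucin of mesothelium, was at 0.985, 0.0522 and 0.883 and 3.15 and 9.86 (log2 difference 3.32, interval 0.98 to 5.65, with all 4 2.33, SE 1.41), and Cldn15, a claudin, at 1.17, 0.4696 and 2.13 and 5.25 and 16.1 (log2 difference 3.06, interval 1.25 to 4.88, with all 4 2.22, SE 0.95). In silica 2, Upk3b, Lrrn4, Muc16 and Cldn15 lay under 0.5 normalised CPM, near the floor, so the size of these differences is uncertain. In TPM Lrrn4, Muc16 and Cldn15 stayed higher without overlap and Upk3b overlapped, at 2.07, 0.13 and 1.43 in silica and 9.49 and 1.93 in silica_DMSO 2 and 5. For Upk3b, Lrrn4 and Muc16 all 3 silica libraries lay below the controls, which held 3.36 to 14.4 of Muc16, and so did silica_DMSO 2 for Muc16. Low levels were not particular to silica. The median of the list was -1.28, -2.198 and -0.16 log2 from the control mean in DMSO 1, 4 and 6. It was -1.57, -1.87 and -1.55 in silica and -0.402 and -0.06 in silica_DMSO 2 and 5. DMSO 7, with Rag1 at 3876 CPM, was at -2.06. In silica_DMSO 4 and 6, Upk3b was at 0.377 and 0.186 and Muc16 at 0.0837 and 0.09295. With all 4 the median was 0.93, with 3 of 11 below 0, where 47.3% of all genes were. Over the other fits with silica_DMSO 2 and 5 the median stayed above 0 and ran from 0.39 to 2.28. How much pleura each sample took in was not tested.

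Endothelial genes, of the vessel lining, were above all silica libraries in silica_DMSO 2 for 11 of 18, where 17.5% of all genes were, and in TPM for 15, against 23.8%. In silica_DMSO 5 it was 5, against 34.8% of all genes. The median difference was 0.41 with silica_DMSO 2 and 5 and -0.56 with all 4. Vwf, von Willebrand factor, was higher without overlap in both, at 165, 207 and 96.1 normalised CPM in silica and 396 and 265 in silica_DMSO 2 and 5 (log2 difference 1.08, interval -0.07 to 2.24, with all 4 0.13, SE 0.99), inside the control range of 256 to 487, and stayed so in TPM. In silica_DMSO 4 and 6 it was at 18.6 and 4.65. Type 1 cell genes, of the flat gas-exchange cells, were above all silica libraries in silica_DMSO 2 for 7 of 15, and below all in silica_DMSO 5 for 11, where 17.5% and 37.1% of all genes were. Fibroblast genes were above in 8 of 18 in silica_DMSO 2 and type 2 cell genes in 4 of 16. Sftpc, a surfactant protein, was at 11596, 19319 and 29100.5 in silica and 17750.2 and 43290.1 in silica_DMSO 2 and 5 (log2 difference 0.596, interval -1.03 to 2.22, with all 4 -0.37, SE 1.2999), and at 636 and 93.5 in silica_DMSO 4 and 6. In CPM without TMM, silica_DMSO 5 was at 20688.5, within the 13855.4 to 26897.9 of silica. In TPM Sftpc was at 30289.1, 36926.4 and 32628 in silica and 39692.4 and 17178 in silica_DMSO 2 and 5. Its direction in silica_DMSO 5 thus depends on the unit.

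**Figure D4:**
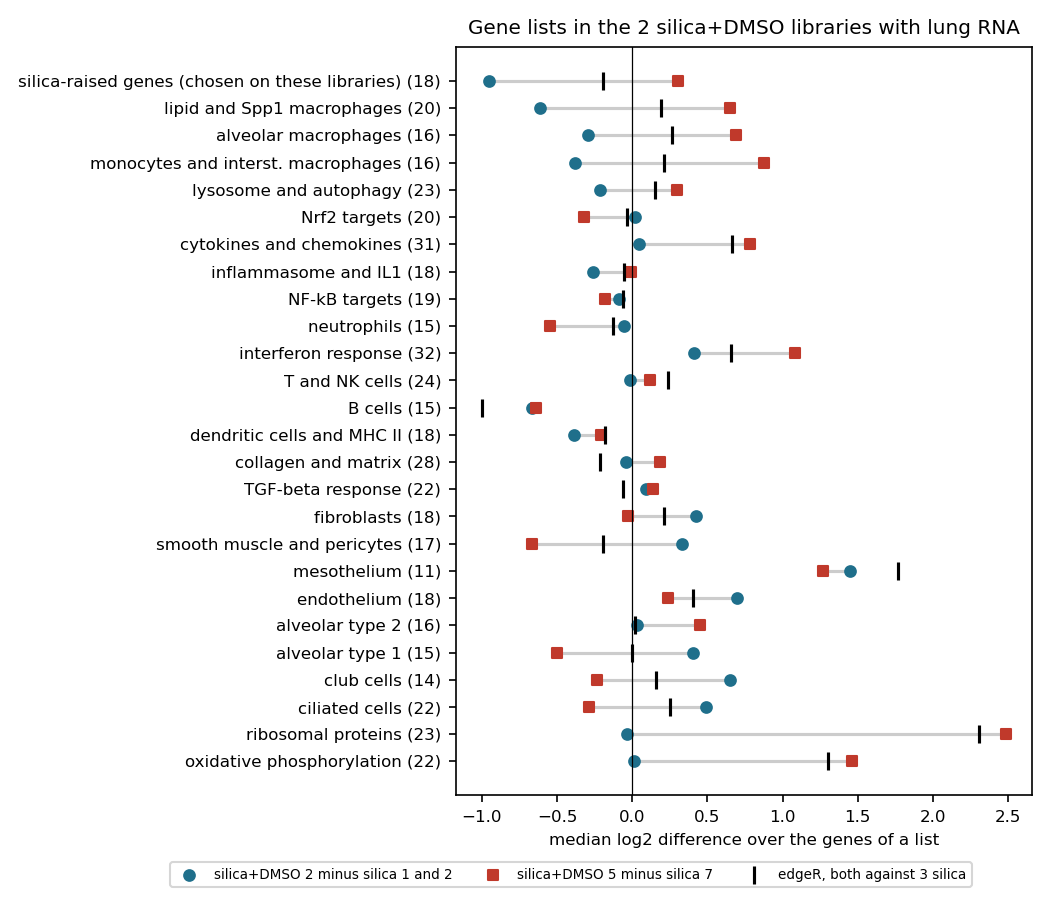
Median log2 difference over the genes of each list (x axis; number of genes in brackets) in silica_DMSO 2 minus silica 1 and 2 (blue circles), in silica_DMSO 5 minus silica 7 (red squares), and in the edgeR comparison of both with all 3 silica libraries (black ticks). Mesothelial genes lie right of 0 in both, B cell genes left in both, macrophage lists on opposite sides, and ribosomal protein genes at 2.49 in silica_DMSO 5 alone. Silica 1, in the reference of silica_DMSO 2, has the highest B cell median of the silica libraries.

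B cell genes were mostly lower in silica_DMSO 2 and 5, in normalised CPM. Of 15, 14 differences were below 0 with silica_DMSO 2 and 5, with a median of -0.9998, 4 were lower without overlap and 2 lower at an unadjusted p under 0.05. Of all genes, 51.1%, 3.93% and 0.42% were. With all 4 libraries 14 of 15 were below 0, where 47.3% of all genes were, and the median was -0.88. Blk, a kinase of B cell receptor signalling, was at 15.1, 5.69 and 7.74 normalised CPM in silica and 4.42 and 3.56 in silica_DMSO 2 and 5 (log2 difference -1.24, interval -2.26 to -0.22, with all 4 -0.72, SE 0.47), under the control range of 6.41 to 13.3. Cd79a, a chain of that receptor, was at 86.3, 24.99 and 53.5 and 29.3 and 22.8 (log2 difference -1.07, interval -2.104 to -0.03, with all 4 -1.03, SE 0.51), and Cd37, a tetraspanin of lymphocytes, at 63.02, 21.5 and 29.2 and 19.4 and 13.9 (log2 difference -1.17, interval -2.15 to -0.198, with all 4 0.13, SE 0.53). Silica 1 holds the highest value of all 3, and without it the median of the list was -0.22 with silica_DMSO 2 and 5 and -0.08 with all 4. Under limma-voom with quality weights the medians turned to 0.07 and 0.12. In TPM the groups overlapped for Blk, Cd79a and Cd37. Fscn1, fascin of mature dendritic cells, was lower without overlap, at 56.6, 35.1 and 28.7 and 25.7 and 5.69 (log2 difference -1.34, interval -2.52 to -0.15, with all 4 0.82, SE 0.77), and stood at 153 and 98.7 in silica_DMSO 4 and 6. In TPM it overlapped, with 17.1 in silica_DMSO 2 and 8.800 in silica 7.

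With all 4 libraries, genes of thymus and T cells were far higher. Thymocyte genes had a median of 5.62, T and natural killer cell genes one of 3.42 with 16 of 24 higher at an unadjusted p under 0.05, against 4.6% of all genes, and cell cycle genes one of 2.16. With silica_DMSO 2 and 5 the medians were -0.303, 0.24 and -0.06. Cd3d, a chain of the T cell receptor complex, was at 11.3, 17.5 and 29.8 normalised CPM in silica, 14.1 in silica_DMSO 2, 111 in silica_DMSO 5 and 455 and 616 in silica_DMSO 4 and 6 (log2 difference 1.66, interval -0.03 to 3.36, with all 4 3.94, SE 1.16). Gzma, a granzyme of killer cells, was at 7.41, 60.4 and 89.1, then 76.5, 299 and 63.6 and 104 (log2 difference 1.82, interval 0.05 to 3.59, with all 4 1.37, SE 0.71). Among the genes with the smallest p over all 4, Mylpf, a myosin light chain of fast skeletal muscle, was higher without overlap in all 4, at 0.563, 0.783 and 0.935 in silica, 2.32 and 4.06 in silica_DMSO 2 and 5 and 8.12 and 11.6 in silica_DMSO 4 and 6 (log2 difference 2.05, interval 0.74 to 3.35, with all 4 3.095, SE 0.83). Shisa2 (log2 difference 1.04, interval -0.01 to 2.08, with all 4 2.81, SE 0.81) and Cd160, a receptor of killer cells (log2 difference 1.45, interval 0.26 to 2.65, with all 4 1.83, SE 0.53), were also higher without overlap in all 4, both highest in silica_DMSO 4 and 6. In TPM Mylpf, Shisa2 and Cd160 overlapped, while Gzma was higher in all 4, at 16.4, 97.5 and 85.7 in silica, 145 and 101 in silica_DMSO 2 and 5 and 138 and 203 in silica_DMSO 4 and 6.

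Oxidant defence genes under Nrf2, the factor that senses electrophiles and oxidants, were split in direction with silica_DMSO 2 and 5. Of 20, 10 differences were above 0 and 10 below with silica_DMSO 2 and 5, where 48.9% and 51.1% of all genes were. At an unadjusted p under 0.05, 0 were lower, against 0.42% of all genes, and with all 4 libraries 2 were, against 1.3%. Silica_DMSO 2 was below all silica libraries in 9, against 14.8% of all genes, and in TPM in 2, against 5.06%. In both comparisons 5 were lower without overlap, Hmox1, Gclc, Txnrd1, Srxn1 and G6pdx, where 3.93% and 1.39% of all genes were. Hmox1, heme oxygenase 1, was at 109, 60.2 and 76.1 normalised CPM in silica, 55.3 and 46.5 in silica_DMSO 2 and 5 and 17.2 and 21.7 in silica_DMSO 4 and 6, with controls at 16.3 to 33.1 (log2 difference -0.68, interval -1.56 to 0.201, and -1.22 with an SE of 0.497 with all 4). Gclc, which makes the precursor of glutathione, was at 203, 176 and 194, 166 and 51.5 and 54.4 and 42.3 (log2 difference -0.81, interval -1.84 to 0.22, with all 4 -1.28, SE 0.46). G6pdx, the source of NADPH, was at 57.8, 63.8 and 54.7, 46.4 and 36.99 and 49.6 and 53.1 (log2 difference -0.497, interval -1.16 to 0.17, with all 4 -0.34, SE 0.25). In TPM these 5 overlapped. Ftl1 and Fth1, the ferritin chains, were low in silica_DMSO 2, Fth1 at 4085, 2998 and 4337 in silica and 2071, and high in silica_DMSO 5 at 11397 (log2 difference 0.82, interval -0.91 to 2.55, with all 4 -0.001, SE 0.92). In TPM Fth1 was lower in all 4, at 8327, 4456 and 3864 in silica, 3621 and 3582 in silica_DMSO 2 and 5 and 1621 and 1695 in silica_DMSO 4 and 6.

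Genes of DMSO's own chemistry overlapped between the groups in normalised CPM. DMSO is reduced to dimethyl sulfide by methionine sulfoxide reductases and oxidised by P450 enzymes, and flavin monooxygenases act on the sulfide. Of 14 such genes tested with silica_DMSO 2 and 5, 8 differences were above 0, where 48.9% of all genes were. Under an unadjusted p of 0.05 were 0, against 1.94% of all genes. Without overlap 0 were higher and 0 lower, where 2.83% and 3.93% of all genes were. In a list of 14, counts of 0 are near these shares. Msra was at 14.4, 23.3 and 34.7 normalised CPM in silica and 17.4 and 42.5 in silica_DMSO 2 and 5 (log2 difference 0.29, interval -0.72 to 1.31, with all 4 0.09, SE 0.405). Msrb1, a selenium-dependent reductase, was at 81.97, 135 and 146 and 65.4 and 301 (log2 difference 0.59, interval -0.77 to 1.94, with all 4 -0.096, SE 0.698). In TPM Msrb1 was lower in all 4, at 166, 201 and 130.4 in silica, 115 and 97.1 in silica_DMSO 2 and 5 and 78.2 and 86.5 in silica_DMSO 4 and 6, so its direction in silica_DMSO 5 depends on the unit. Msrb2 was at 7.22, 12.1 and 18.2 and 11.6 and 31.5 (log2 difference 0.77, interval -0.54 to 2.07, with all 4 0.57, SE 0.503) and Msrb3 at 71.7, 70.7 and 34.3 and 85.5 and 21.95 (log2 difference -0.13, interval -1.69 to 1.44, with all 4 -0.95, SE 0.79). Fmo2, the main flavin monooxygenase of lung, was at 553, 937 and 380.0 and 1259.9 and 209 (log2 difference 0.24, interval -1.61 to 2.09, with all 4 -0.74, SE 1.23), and Fmo1 at 141, 342 and 177 and 375 and 141 (log2 difference 0.23, interval -1.22 to 1.67, with all 4 -0.64, SE 0.83). In silica_DMSO 4 and 6 Fmo2 was at 17.7 and 4.74 and Fmo1 at 23.9 and 25.7, and both differences turned below 0 with all 4. Fmo2 was highest in silica_DMSO 2 and lowest in silica_DMSO 5 among the 5. Cyp2e1, a P450 enzyme of small solvents, was at 5.91, 15.8 and 28.9 and 19.8 and 10.7 (log2 difference -0.15, interval -1.63 to 1.32, with all 4 -0.56, SE 0.75). Aqp1 was at 283, 641 and 544 and 669 and 574 (log2 difference 0.34, interval -0.89 to 1.56, with all 4 -0.52, SE 0.799) and Aqp5, the water channel of type 1 cells, at 119, 141 and 245 and 168 and 262 (log2 difference 0.34, interval -0.71 to 1.3995, with all 4 -0.63, SE 1.17). Over all 4 libraries the list's median was -0.54, with 10 of 14 below 0, where 47.3% of all genes were.

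In normalised CPM ribosomal protein genes were highest in silica_DMSO 5 among the 15 libraries, and red cell genes were high there as in some libraries without silica. The 23 ribosomal protein genes had a median of 3.62 log2 above the control mean in silica_DMSO 5, against -0.78 to 1.08 in the silica libraries, -0.42 in silica_DMSO 2, 0.79 and 1.17 in silica_DMSO 4 and 6 and 2.61 in DMSO 4. Red cell genes summed to 15225 CPM in silica_DMSO 5 and to 593 to 4000.1 in silica, but to 19606 in DMSO 1 and 13116 in control 2. Hbb-bs, a beta globin, was at 518, 1719 and 288 normalised CPM in silica, 669 in silica_DMSO 2 and 18568 in silica_DMSO 5 (log2 difference 3.501, interval 0.6001 to 6.403, with all 4 2.52, SE 1.73), beside 8169 in DMSO 4 and 10422 in DMSO 1. Globin genes are near-identical copies, so the split between them is uncertain. The 12 ribosomal protein genes at an unadjusted p under 0.05 with silica_DMSO 2 and 5 rest on silica_DMSO 5, since the like-library median in silica_DMSO 2 was -0.04. Ribosomal protein genes are short, with a median length of 833 bases, and silica_DMSO 5 had 11.5% of its counts in long genes. Their median difference was 2.31 with silica_DMSO 2 and 5 and 1.83 with all 4. With silica_DMSO 2 and 5 it was 0.64 with the long-gene share as a covariate and 0.49 in log2(TPM + 1). The part of gene length in this was not tested.

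Silica_DMSO 2 and 5 more often pointed opposite ways than the same way. Of 17630 genes, 23.1% were higher and 19.7% lower in both like-library differences, which share no library, and 56.6% went opposite ways. Spearman's rho between them was -0.17 across genes, which are not independent replicates. The silica_DMSO 5 difference still went with gene length, at a rho of -0.38, and the part of this in the directions was not tested. Differences over 1 log2 made up 2.94% of genes in silica_DMSO 2 and 26.8% in silica_DMSO 5. Against these shares, 10 of 11 mesothelial and 21 of 32 interferon genes were higher in both, and 12 of 15 B cell genes lower in both. For B cell genes the reference of silica_DMSO 2 takes in silica 1, whose list median was 1.02 log2 from the control mean. It was -0.86 in silica 2 and -0.66 in silica_DMSO 2, which thus stood above silica 2. Of the lipid macrophage genes 15 of 20 went opposite ways.

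**Figure D5:**
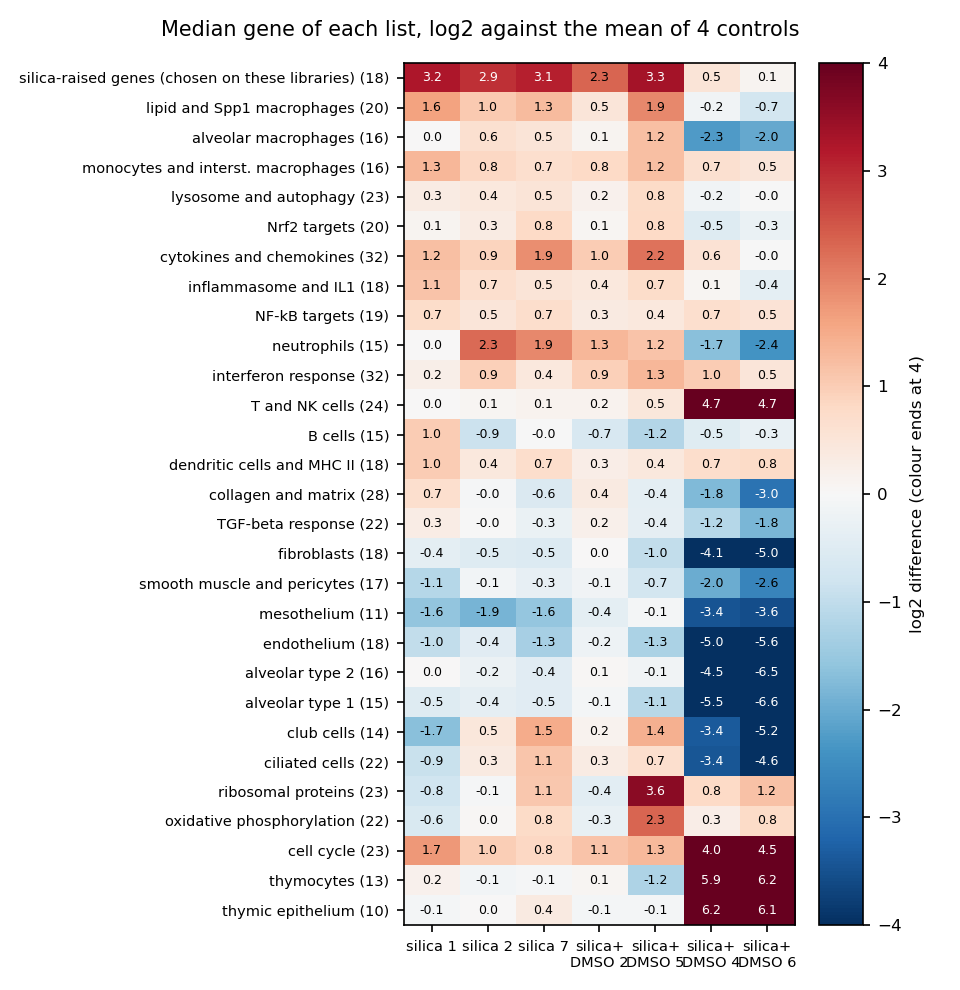
Median log2 difference from the mean of the 4 controls for each gene list (lines; number of genes in brackets) in the 7 libraries (columns), printed in each cell, with red above and blue below and colour ending at 4. Silica_DMSO 2 and 5 keep the red of the silica-raised genes at 2.34 and 3.34, while silica_DMSO 4 and 6 are blue in lung cell lists and red in thymus lists.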

How the data were processed

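RNA was measured by sequencing of lung from 15 mouse samples with the TruSeq kit, and 7 samples enter the comparison. Per the submitters' processing notes, reads were handled with Bowtie 0.12.2 and the build was mm8. No counting program is named in the sources used here, and the extraction notes speak of retinas where the tissue label says lung. The authors deposited expected counts per gene and TPM, which the deposited table scales by gene length. Of the expected counts, zeros included, 7.52% to 10.03% per library were not whole, and they were rounded here. Gene lengths and symbols come from the same deposited tables. The authors' 8 mean columns were not used. The columns were matched to samples through their descriptions.

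Counts were fitted with edgeR 4.0.16 (R 4.3.3; TMM, filterByExpr with a minimum count of 10, robust quasi-likelihood F test) in 2 fits, of all 15 libraries, and of 12 without those with Rag1 over 1000 CPM. All groups share 1 estimate of the spread. Two-sided p-values were adjusted by Benjamini-Hochberg over all genes tested. Normalised CPM are CPM over TMM-scaled library sizes, and like-library differences use a pseudocount of 0.5. Groups do not overlap where every library of one lies beyond every library of the other. The fits were tested on simulated counts. DESeq2 1.42.0, limma 3.58.1, other scalings, filters, TPM, leaving out each library, a long-gene covariate and a replicate block were tried, and the counts in TPM were added after seeing the data.

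The compared groups and the 52 gene lists were chosen with earlier results of these data known. Genes are named by a rule: the 10 with the smallest p in each direction and fit with a mean of 1 CPM or more (without overlap in the fit with silica_DMSO 2 and 5; predicted genes, pseudogenes and receptor segments left out), 12 fixed genes, the DMSO genes, and 3 per list by p. Some genes that the rule names are not reported here. Rag1 and Foxn1 are markers. Bst2, Fth1, Ftl1, Gbp2, Ifit1, Irf7, Isg15, Mmp12, Oas1a, Srxn1, Trem2, Txnrd1 and Upk3b, and the genes so marked in the text, were chosen after their values were seen. Promoters are RefSeq's (GRCm38.p6), matched by symbol for 12451 genes tested.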

Additional observations from a re-analysis of the deposited data

Results flagged for a closer look

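Of 46 genes tested in the 4 silica_DMSO libraries, 7 had 1 library far from the other 3, by its gap relative to the whole range. Chance gives this in about 1 of 20 groups of 4 independent values from the same normal distribution. These 4 libraries are not alike and every gene shares them, so that rate cannot be set against the count. In silica_DMSO 2, Col1a1 was at 165 normalised CPM, against 4.69 to 25.6 in the others, and Nlrp3 at 38.9, against 0.508 to 1.55. There Stac2 was at 3.28, against 0.6699 to 0.813, and Apol6 at 1.09, against 0.0837 to 0.232. For these 4 genes silica_DMSO 2 was the highest of the 4. In silica_DMSO 5, Ifi27l2a was at 2806, against 118 to 149 in the others, Xaf1 at 227, against 24.7 to 42.5, and Timp1 at 38.01, against 2.46 to 8.13. In each case the remaining libraries include silica_DMSO 4 and 6, which carry thymus RNA.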

How the results depend on the processing

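The count of genes called stayed at 0 in all but 3 fits. With all 4 libraries 69 genes were called by DESeq2 and 12275 by limma-voom with quality weights. Leaving out 1 library each gave 0 to 0 genes with all 4, and with silica_DMSO 2 and 5 it gave 0 to 2 genes, the higher value, for Gemin4 and Gm10925, without silica_DMSO 2. The cause was not tested. Under limma-voom with quality weights some log2 differences with all 4 turned: Bst2 to -0.59, Ccl2 to -2.29, Cish to -0.49, Dusp1 to -2.86, Ftl1 to -1.06, Hbb-bs to -4.33, Trem2 to -2.43 and Vwf to -3.7004. The cause was not tested. The compared groups share only number 2, and the replicate block was fitted over all 15 libraries, where control and DMSO libraries share further numbers with them. With it 0 genes were called and 399 were under an unadjusted p of 0.05, against 1056 without it. With silica_DMSO 2 and 5 the genes under that p numbered 342, 108 in log2(TPM + 1), 542 with the long-gene covariate, 45 without silica_DMSO 5 and 4097 without silica_DMSO 2, where the lone library is assumed to vary like the other groups. With all 4 they numbered 2397 with that covariate, 3915 without silica_DMSO 2 and 334 without silica_DMSO 6. Of 88 named genes tested with silica_DMSO 2 and 5, 50 kept their sign in every fit run, and with all 4 libraries 62 of 90. With all 4 the median of all genes was 0.05, -0.195 in log2(TPM + 0.1) and with silica_DMSO 2 and 5 -0.02 and -0.75. The biological coefficient of variation between libraries of a group was 0.52 with silica_DMSO 2 and 5 and 0.666 with all 4, which limits the differences that 3 libraries against 2 or 4 can show.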

Other observations

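Of 18 genes of dendritic cells and MHC class II, silica_DMSO 2 lay below all silica libraries in 10, and in 2 in TPM, where 14.8% and 5.06% of all genes were. Cd74, the invariant chain that escorts class II molecules, was lower without overlap in all 4 silica_DMSO libraries, at 3085, 2051 and 2277 normalised CPM in silica 1, 2 and 7, 1739 and 1102 in silica_DMSO 2 and 5 and 2007 and 1712 in silica_DMSO 4 and 6 (log2 difference -0.79, interval -2.102 to 0.51, with all 4 -0.59, SE 0.53). H2-Aa, the class II alpha chain, was at 1540.4, 981 and 1459 in silica, 866 in silica_DMSO 2 and 1603 in silica_DMSO 5, and DMSO 4 without silica held 3038. Over the other fits with all 4, the log2 difference of H2-Aa ran from -0.55 to 0.12, and with silica_DMSO 2 and 5 from -1.02 to 0.25. Itgae, the CD103 integrin of dendritic and T cells, was higher without overlap in all 4, at 20.5, 16.7 and 16.05 in silica, 21.2 and 35.7 in silica_DMSO 2 and 5 and 52.8 and 29.6 in silica_DMSO 4 and 6 (log2 difference 0.67, interval -0.26 to 1.61, with all 4 0.97, SE 0.399). In TPM Cd74 and Itgae overlapped, with 1977 of Cd74 in silica_DMSO 2 against 4096, 1965 and 1347 in silica and 2.08 of Itgae in silica_DMSO 5 against 7.36, 4.32 and 2.66. None of these passed the adjusted threshold, and Cd74 and H2-Aa were chosen after their values were seen.

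Circadian and stress genes overlapped between silica_DMSO 2 and 5 and silica for the most part. Without overlap, 1 of 17 clock genes was higher and 1 lower. Among 18 genes of heat shock and ER stress 3 were higher, among 19 immediate early genes 2, and 0 were lower. Over all genes, 2.83% were higher and 3.93% lower. With all 4 libraries 1 gene of each stress list was higher, against 0.783% of all genes. In TPM silica_DMSO 2 was above all silica libraries in 11 of the 18 and 11 of the 19, against 23.8% of all genes. Of 17 clock genes 6 differences were above 0 with silica_DMSO 2 and 5, where 48.9% of all genes were. Nr1d1, the repressor REV-ERB alpha, was at 19.04, 23.7 and 38.9 normalised CPM in silica and 31.9 and 6.71 in silica_DMSO 2 and 5, under the control range of 56.6 to 161 in all 5. Dusp1, a phosphatase that shuts off stress kinases, was higher without overlap in silica_DMSO 2 and 5, at 214 and 219.8 against 54.4, 172 and 122 (log2 difference 0.89, interval -0.79 to 2.57, with all 4 0.03, SE 0.902), and stood at 20.6 and 19.1 in silica_DMSO 4 and 6. In TPM silica_DMSO 5, at 33.9, lay below every silica library, at 48.5, 107 and 50.8, so its direction depends on the unit. Acta1, the actin of skeletal muscle, was at 6.82 in silica_DMSO 2, against at most 0.623 in silica and 0.102 in silica_DMSO 5. In TPM it was at 6.51 in silica_DMSO 2 and 1.28 in silica_DMSO 6, against 0.37, 0.16 and 0.31 in silica. Alb, albumin, was at 21.6 in silica_DMSO 5 and at most at 4.103 in silica. Over the other fits with all 4, the log2 difference ran from 0.73 to 4.7 for Acta1, from -0.59 to 4.68 for Alb and from -1.53 to -0.51 for Nr1d1. With silica_DMSO 2 and 5 it ran from -1.39 to 5.1 for Acta1, from 0.25 to 5.63 for Alb and from -2.05 to 0.24 for Nr1d1. Nr1d1, Dusp1, Acta1 and Alb were chosen after their values were seen.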
